A study of Salvia miltiorrhiza with 5 samples.

Results

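The basic helix-loop-helix (bHLH) unigenes of *Salvia miltiorrhiza* hairy roots are described here in 5 RNA libraries. A unigene is a transcript sequence of an assembly made without a genome, and the 51 members are those that the study's list of elicitor-responsive transcription factors assigns to the bHLH family. All 51 were found among the 55588 unigenes of the deposited tables. The libraries were MeJA-1h and MeJA-6h (methyl jasmonate for 1 h and 6 h), YE-1h and YE-12h (yeast extract elicitor for 1 h and 12 h) and the control, taken at 0 h without elicitor. All came from 40-day-old shake-flask cultures of hairy roots, which were induced from leaf sections with *Agrobacterium* strain C58C1 (pRi A4), so every group carries this transformation. Each library was mixed RNA of replicate samples and there was 1 library per condition, so no spread between replicates could be measured. No later library without elicitor and none with the ethanol in which MeJA was dissolved was analysed here, so time, handling and solvent cannot be told apart from the elicitor. In bulk RNA, fewer cells of a type and less RNA per cell cannot be told apart either. The deposited tables hold no gene names and only part of the study's annotation was at hand, so root cell markers were not analysed here.

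bHLH proteins bind DNA as dimers through a basic region, and many act together with MYB proteins on the genes of secondary metabolism. In *Arabidopsis*, the bHLH protein MYC2 is the central activator of the jasmonate response, and it is held inactive by JAZ repressors of the Tify family until jasmonate is perceived. MeJA is the volatile ester of jasmonic acid and YE is a carbohydrate-rich fungal elicitor. Both are used as elicitors in cultures of *S. miltiorrhiza*, whose root is known as a medicine for its tanshinones and phenolic acids.

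The bHLH unigenes were mostly higher with MeJA, most of all at 1 h, and fewer passed upwards with YE. Levels are RPKM, reads scaled to unigene length and library total, and a fold change is the ratio of the RPKM values of 2 libraries. A unigene passed where this ratio was over 2, or under 0.5 for a fall, and the reads of the 2 libraries differed at an FDR under 0.01 by the binomial test of edgeR over all unigenes. This test compares 2 libraries, not 2 conditions. The members were chosen by such ratios to the control, so their counts against the control are descriptions. In MeJA-1h, 40 members passed upwards and 1 downwards, while 5.78% of all unigenes tested passed upwards and 7.99% downwards. In MeJA-6h, 26 passed upwards and 0 downwards, beside 5.15% and 9.08% of all unigenes. In YE-1h, 8 passed upwards and 2 downwards, beside 5.89% and 4.83%. In YE-12h, 3 passed upwards and 2 downwards, beside 2.83% and 3.77%. The members that passed downwards were SmiContig28202 in MeJA-1h (ratio 0.41), SmiContig7293 and SmiContig7294 in YE-1h (0.24 and 0.43), and SmiContig7294 and SmiContig7680 in YE-12h (0.43 and 0.47). SmiContig7293 and SmiContig7294 are named after their values were seen, and with TMM scaling or DESeq2 size factors only the fall of SmiContig7293 in YE-1h still passed.

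The level of the typical member followed the same order. The median log2 ratio of the members to the control was 1.91 after 1 h and 1.20 after 6 h of MeJA, and 0.17 after 1 h and -0.12 after 12 h of YE. That of all unigenes was -0.28, -0.24, -0.16 and -0.16 in the same 4 libraries. The members held 0.147% of all counted reads after 1 h and 0.0915% after 6 h of MeJA, 0.0551% after 1 h and 0.0332% after 12 h of YE, and 0.0358% in the control. Scaling mattered to the whole table: TMM scaling moved all log2 ratios to the control upwards, by 0.28 and 0.24 for the MeJA libraries at 1 h and 6 h and by 0.15 and 0.16 for the YE libraries at 1 h and 12 h. With it, the share of calls that were upwards over all unigenes was 66.4% in place of 42.0% for MeJA-1h, 56.8% in place of 36.2% for MeJA-6h, 68.0% in place of 54.9% for YE-1h and 61.8% in place of 42.9% for YE-12h. With it, 43, 31, 12 and 3 members passed upwards and 0, 0, 1 and 0 downwards in these 4 libraries. The median of the members in YE-12h became 0.04. Of all unigenes, 4291, 3897, 3941 and 2058 passed upwards with TMM scaling and 2172, 2960, 1852 and 1271 downwards. Replicate libraries were then assumed to vary with a coefficient of variation of 0.4. Under this, an exact test in edgeR left 7, 3, 0 and 0 members upwards in the 4 libraries. The share of all unigenes that this test left is not given here, so nothing is read from the drop.

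**Figure D1:**
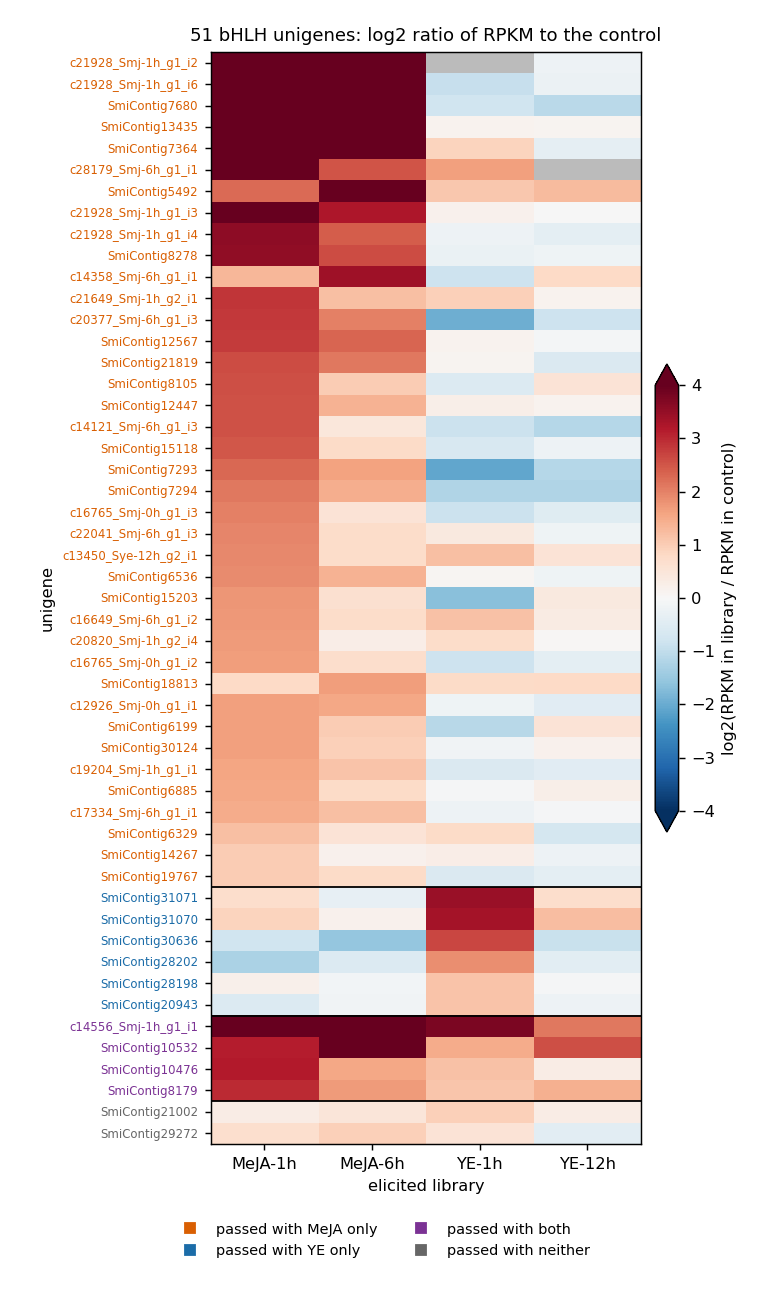
Log2 ratio of RPKM to the control of the 51 bHLH unigenes (rows) in the 4 elicited libraries (columns), grouped by the elicitors with which they passed upwards, with colours capped at 4 and -4 and grey for a pair of libraries that each held 3 reads or fewer. The 39 MeJA-only unigenes fill the upper block and are red in the MeJA columns, and the 6 YE-only unigenes are most red in YE-1h.

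By elicitor, 39 members passed upwards with MeJA only, 6 with YE only, 4 with both and 2 with neither. Of all unigenes, 5.19% passed upwards with MeJA only, 4.36% with YE only and 2.73% with both, and since the rule used these ratios nothing is read from the difference. Of the 43 that passed with MeJA, 40 passed at 1 h and 26 at 6 h. Among the 39 MeJA-only members, 19 passed at both times, 17 at 1 h alone and 3 at 6 h alone. Their ratios in MeJA-1h ran from 1.72 to at least 140, and their median ratio to the control was 4.08 after 1 h and 2.60 after 6 h of MeJA, and 0.90 after 1 h and 0.88 after 12 h of YE. MeJA-1h held the highest of the 5 RPKM values for 38 members, MeJA-6h for 6 and YE-1h for 7, beside 12.3%, 14.5% and 22.3% of all unigenes. YE-12h and the control held it for 0 members, beside 14.0% and 36.9% of all unigenes. Unigenes were listed for a level above the control, so the choice of members sets the count for the control and nothing is read from it.

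The members with an *Arabidopsis* match include both that match MYC2. For c21649_Smj-1h_g2_i1 the RPKM was 69.0 after 1 h and 21.8 after 6 h of MeJA, 18.4 after 1 h and 10.4 after 12 h of YE, and 9.45 in the control. For SmiContig10476 it was 53.7, 17.5, 13.4 and 7.26 in those elicited libraries, against 5.96 in the control. Both stood highest in MeJA-1h and were much closer to the control in the other libraries. The MeJA-1h ratio to the control was 7.31 (95% exact interval 6.46 to 8.31) for c21649_Smj-1h_g2_i1 and 9.01 (6.94 to 12.2) for SmiContig10476. These intervals, here and later, cover counting error only. In YE-1h, SmiContig10476 passed upwards at 2.24 (1.68 to 3.11) and c21649_Smj-1h_g2_i1 was at 1.94 (1.70 to 2.24), just under the threshold of 2. With TMM scaling or DESeq2 size factors, c21649_Smj-1h_g2_i1 passed in YE-1h too. Whether the 2 unigenes are parts of 1 gene was not tested; they are about 2215 and 721 bp long.

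The part of the study's annotation at hand gave a match to 10 members in all. That annotation comes from the study's list of upregulated unigenes, so the calls and later falls of matched members are descriptions. Besides the MYC2 matches, 6 match the *Arabidopsis* bHLH gene AT4G37850. All 6 passed upwards in MeJA-1h, at ratios between 3.24 and 7.97, and they were lower at 6 h than at 1 h. SmiContig8179 had 8.66 RPKM after 1 h and 3.57 after 6 h of MeJA, 2.32 after 1 h and 2.88 after 12 h of YE, and 1.09 in the control. Of the 6, it had the highest ratio in MeJA-1h and was the only one to pass in YE-12h, at 2.65 (1.55 to 4.69). The MeJA-1h ratios of the others were 5.89 for SmiContig12447, 5.92 for SmiContig8105, 3.76 for c13450_Sye-12h_g2_i1, 3.35 for c16649_Smj-6h_g1_i2 and 3.24 for c20820_Smj-1h_g2_i4. The 6 are weakly expressed unigenes, with 11 to 24 control reads each, and unigenes that match 1 *Arabidopsis* gene may share reads. Non-member sequences assembled under the same name had lower MeJA-1h ratios. For c20820_Smj-1h_g2 they ran from 0.92 for i2, on 82 control reads, to 2.47 for i1. For c16649_Smj-6h_g1 they were 1.71 for i1 and 1.93 for i3. Whether the whole genes rose as these members did was not tested. In YE-1h none of the 6 passed, at ratios of 2.28 for c13450_Sye-12h_g2_i1, 2.25 for c16649_Smj-6h_g1_i2, 2.14 for SmiContig8179, 1.66 for c20820_Smj-1h_g2_i4, 1.19 for SmiContig12447 and 0.69 for SmiContig8105. With TMM scaling or DESeq2 size factors, c13450_Sye-12h_g2_i1 and SmiContig8179 passed there. At an FDR of 0.05, c16649_Smj-6h_g1_i2 passed as well.

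The last matched members were SmiContig19767 and SmiContig15203. SmiContig19767 matches LRL3, a regulator of root hair growth in *Arabidopsis*, and had 12.5 RPKM after 1 h and 10.5 after 6 h of MeJA, 4.11 after 1 h and 4.68 after 12 h of YE, and 6.16 in the control. It passed only in MeJA-1h, at 2.03 (1.56 to 2.64). With TMM scaling or DESeq2 size factors it passed in MeJA-6h too, and with a pseudocount of 1 RPKM in neither. SmiContig15203, which matches AT5G51780, had 9.46 RPKM after 1 h and 4.33 after 6 h of MeJA, 0.878 after 1 h and 3.68 after 12 h of YE, and 2.78 in the control, from 13 control reads. SmiContig15203 passed only in MeJA-1h, at 3.41 (1.86 to 6.92), and its lowest library was YE-1h.

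The largest MeJA ratios belonged to members without a match in the part of the annotation at hand, and the rest of it may hold one. SmiContig7680, the second most expressed member by mean RPKM, had 108 RPKM after 1 h and 64.2 after 6 h of MeJA, 1.88 after 1 h and 1.53 after 12 h of YE, and 3.26 in the control. Its 2 MeJA libraries stood far above the others, with ratios to the control of 33.2 (26.7 to 42.4) and 19.7 (15.8 to 25.2), and in YE-12h it passed downwards at 0.47. SmiContig13435, with no match at hand and named after its values were seen, was also high in both MeJA libraries. It had 48.5 RPKM in MeJA-1h and 25.4 in MeJA-6h, against 1.52 in the control, a ratio of 31.9 (22.0 to 50.0) in MeJA-1h. Its YE libraries, at 1.69 and 1.62 RPKM, lay at the control level.

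Further MeJA-only members without a match at hand, chosen here after their values were seen, differed mainly in how long they stayed high. SmiContig7364 had 23.2 RPKM after 1 h and 23.9 after 6 h of MeJA, 2.33 after 1 h and 0.985 after 12 h of YE, and 1.26 in the control, so its MeJA libraries were level with each other at 18.4 and 19.0 times the control. SmiContig12567 had 40.5 RPKM after 1 h and 29.1 after 6 h of MeJA, 6.45 after 1 h and 5.48 after 12 h of YE, and 5.81 in the control. SmiContig15118 had 59.9 RPKM after 1 h and 18.3 after 6 h of MeJA, 6.83 after 1 h and 9.24 after 12 h of YE, and 10.7 in the control. At 6 h it stood at 1.72 times the control (1.40 to 2.12) and passed only with TMM scaling or DESeq2 size factors. SmiContig18813 was instead highest at 6 h, with 6.69 RPKM after 1 h and 12.3 after 6 h of MeJA, 6.59 after 1 h and 6.81 after 12 h of YE, and 3.88 in the control, and it passed in MeJA-6h but in MeJA-1h only with TMM scaling or DESeq2 size factors.

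2 members had at most 1 read in the control. c14556_Smj-1h_g1_i1 had 133 reads after 1 h and 34 after 6 h of MeJA, 19 after 1 h and 6 after 12 h of YE, and 1 in the control. Its ratio of 111 in MeJA-1h therefore has a wide interval, 19.6 to 4411, and it also passed in YE-1h. c21928_Smj-1h_g1_i2 had 505 reads after 1 h and 116 after 6 h of MeJA, 1 after 1 h and 4 after 12 h of YE, and 0 in the control. With the 0 reads of the control set to 3, it was at least 140-fold higher in MeJA-1h and at least 32.9-fold higher in MeJA-6h, and the exact 95% lower limits, which also hold the counting error of the MeJA libraries, were 114 and 26.3.

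c21928_Smj-1h_g1_i2 belongs to a Trinity component, a group of assembled sequences that share stretches, and 3 more members come from the same component. In MeJA-1h their RPKM values were 35.8 for i2, 39.3 for i3, 35.2 for i4 and 32.0 for i6, so the 4 stood at like levels. In the control they were 0 for i2, 2.45 for i3, 2.96 for i4 and 0.525 for i6, so only i3 and i4 had more than 5 reads. The MeJA-1h ratios were accordingly unequal, 16.04 (11.5 to 22.9) for i3, 11.9 (8.89 to 16.5) for i4 and 60.9 (30.1 to 219) for i6. Together with i1, which is in the component but not a member, i2 and i6 took 47.0% of the component's reads after 1 h of MeJA (45.1 to 49.0) and 30.3% after 6 h (27.5 to 33.3). They took 4.96% after 1 h of YE (1.84 to 10.5), 9.24% after 12 h (4.71 to 15.9) and 6.74% in the control (2.51 to 14.1). This grouping was chosen after the values were seen, and the intervals are exact binomial ones. How reads shared by such sequences were divided among them is not given in the sources used here, so the split is uncertain. The 4 members summed to 142 RPKM in MeJA-1h and 57.6 in MeJA-6h, against 5.94 in the control, ratios of 23.9 and 9.69. Their summed reads per library total gave ratios of 21.8 (17.6 to 27.3) and 9.16 (7.36 to 11.5).

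The other component with several members was c16765_Smj-0h_g1. Its unigenes i2 and i3 had 12.4 and 29.7 RPKM in MeJA-1h and 6.31 and 10.7 in MeJA-6h, against 3.89 and 7.28 in the control. By summed reads per library total, the pair had ratios to the control of 3.84 (3.14 to 4.73) in MeJA-1h and 1.51 (1.20 to 1.91) in MeJA-6h. The names of 32 members, the SmiContig ones, give no component. With each of these taken as its own, the 51 members make 47 groups.

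**Figure D2:**
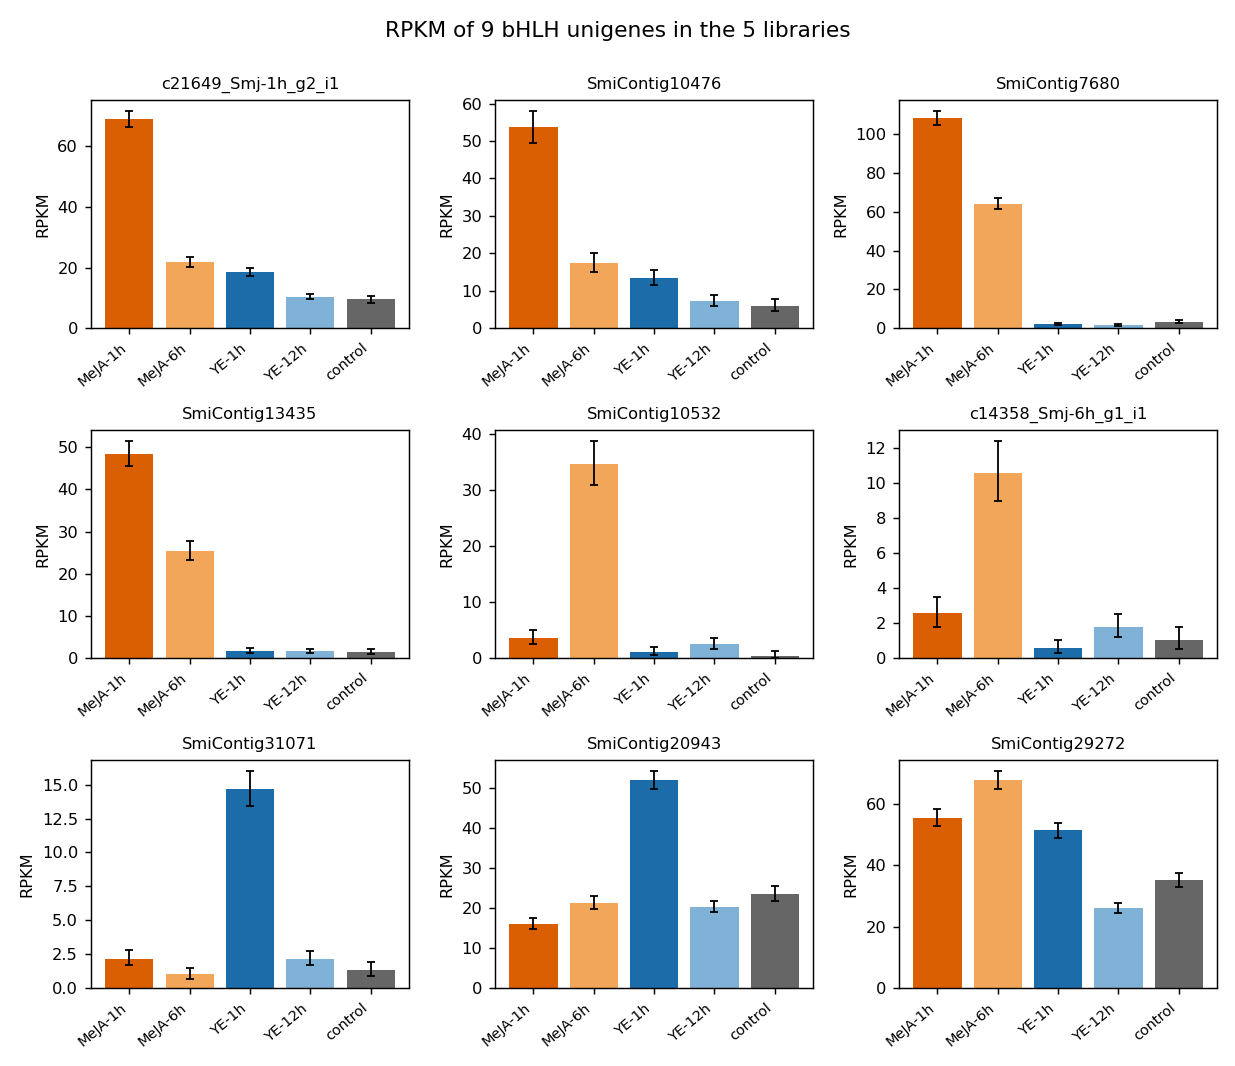
RPKM of 9 bHLH unigenes in the 5 libraries, with 1 bar per library and 95% exact Poisson intervals of counting error as error bars. The 2 unigenes that match MYC2, SmiContig7680 and SmiContig13435 are highest in MeJA-1h, SmiContig10532 (34.7 RPKM), c14358_Smj-6h_g1_i1 and SmiContig29272 in MeJA-6h, and SmiContig31071 and SmiContig20943 in YE-1h.

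Between the 2 MeJA times, most members were lower at 6 h. Here 18 members passed downwards in MeJA-6h against MeJA-1h and 3 upwards, beside 4.47% and 3.44% of all unigenes. The median log2 ratio of MeJA-6h to MeJA-1h was -0.78 for the members and 0.03 for all unigenes. Of the 43 members that passed upwards with MeJA, 38 were lower at 6 h than at 1 h, 17 of them past the threshold. These libraries also served to choose the members, so a high value at 1 h could have placed a unigene in the list. The MYC2 matches were among those that fell, to 0.32 (0.29 to 0.34) for c21649_Smj-1h_g2_i1 and 0.32 (0.28 to 0.38) for SmiContig10476, while SmiContig7680 was at 0.59 (0.56 to 0.63) and did not pass.

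3 members passed in the other direction, upwards in MeJA-6h against MeJA-1h. SmiContig10532 had 3.60 RPKM after 1 h and 34.7 after 6 h of MeJA, 1.15 after 1 h and 2.46 after 12 h of YE, and 0.409 in the control. Its MeJA-6h level was 9.63 times that of MeJA-1h (6.77 to 14.7) and, on 3 control reads, 84.8 times that of the control (28.7 to 412). c14358_Smj-6h_g1_i1 had 2.55 RPKM after 1 h and 10.6 after 6 h of MeJA, 0.573 after 1 h and 1.79 after 12 h of YE, and 1.02 in the control. It was 4.16-fold higher at 6 h than at 1 h (2.92 to 6.20). SmiContig5492, named after its values were seen, had 38 reads in MeJA-6h, 11 in MeJA-1h and 2 in the control, and its ratio of 6 h to 1 h was 3.44 (1.76 to 7.63).

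**Figure D3:**
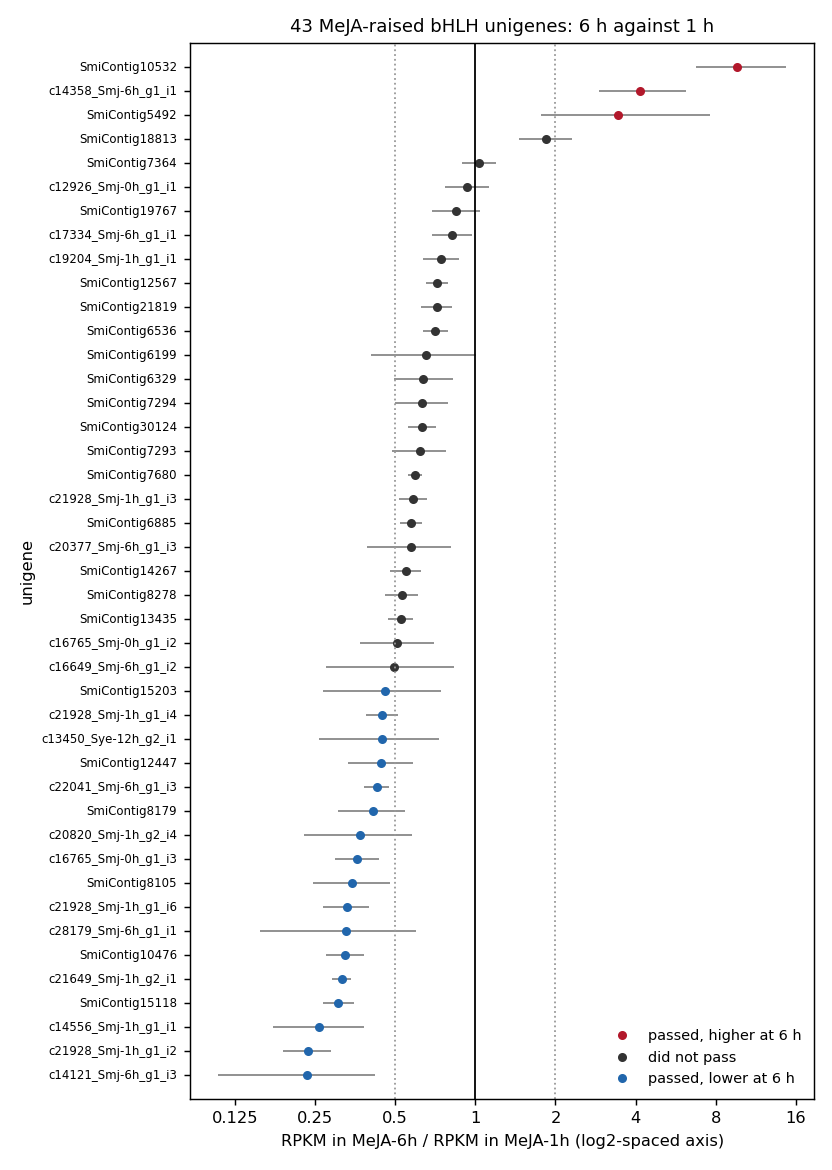
Ratio of the RPKM in MeJA-6h to that in MeJA-1h for the 43 bHLH unigenes that passed upwards with MeJA, on a log2-spaced axis, with 95% exact intervals of counting error as lines and dotted lines at 0.5 and 2. Of these, 38 points lie under 1 and SmiContig10532 stands at 9.63.

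The 6 members that passed with YE only were all highest in YE-1h. SmiContig31071 had 14.7 RPKM after 1 h and 2.18 after 12 h of YE, 2.18 after 1 h and 1.06 after 6 h of MeJA, and 1.33 in the control, a ratio of 11.0 (7.73 to 16.5) in YE-1h. SmiContig31070, the unigene numbered next to it, had 13.8 RPKM after 1 h and 3.22 after 12 h of YE, 2.55 after 1 h and 1.54 after 6 h of MeJA, and 1.38 in the control. It passed at 10.01 (7.20 to 15.1) in YE-1h and at 2.33 (1.60 to 3.60) in YE-12h, and was the only YE-only member to pass at both times. Its YE-12h call was lost with a pseudocount of 1 RPKM, and with TMM scaling or DESeq2 size factors it also passed in MeJA-1h. Whether these neighbours in the numbering share sequence was not tested.

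SmiContig30636 and SmiContig28202 were low in every library but YE-1h. SmiContig30636 had 13.1 RPKM after 1 h and 1.11 after 12 h of YE, 1.18 after 1 h and 0.696 after 6 h of MeJA, and 2.05 in the control, a YE-1h ratio of 6.37 (4.17 to 10.6). SmiContig28202 had 14.0 RPKM after 1 h and 2.84 after 12 h of YE, 1.57 after 1 h and 2.59 after 6 h of MeJA, and 3.82 in the control. It passed upwards in YE-1h at 3.66 (2.61 to 5.38) and downwards in MeJA-1h at 0.41 (0.23 to 0.74), on 19 reads. With TMM scaling the log2 ratio was -1.004 and the reads no longer met the FDR, so this fall did not pass.

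SmiContig20943 and SmiContig28198 were already expressed in the control. SmiContig20943 had 52.0 RPKM after 1 h and 20.3 after 12 h of YE, 16.1 after 1 h and 21.4 after 6 h of MeJA, and 23.5 in the control, and was the third most expressed member by mean RPKM. Its YE-1h ratio was 2.21 (2.02 to 2.41). SmiContig28198 had 10.3 RPKM after 1 h and 4.55 after 12 h of YE, 5.35 after 1 h and 4.30 after 6 h of MeJA, and 4.65 in the control, and a ratio of 2.22 (1.74 to 2.87) in YE-1h. Outside YE-1h both stayed within 1.5-fold of the control.

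By 12 h of YE these levels were lower again. In YE-12h against YE-1h, 8 members passed downwards and 3 upwards, beside 6.99% and 3.92% of all unigenes, and the median log2 ratio was -0.20 for the members and -0.02 for all unigenes. All 6 YE-only members were among the 8, at ratios between 0.085 for SmiContig30636 and 0.44 for SmiContig28198. These were chosen for a high value in YE-1h, so their lower value at 12 h is a description. The 3 that passed upwards were SmiContig15203, SmiContig6199 and c14358_Smj-6h_g1_i1, with 6, 9 and 10 reads in YE-1h. SmiContig6199 is named after its values were seen.

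After 1 h the elicitors can be compared at the same time, although MeJA is a compound and YE a mixture, so no dose was matched. In MeJA-1h against YE-1h, 36 members passed upwards and 5 downwards, beside 6.01% and 8.96% of all unigenes. The median log2 ratio of MeJA-1h to YE-1h was 2.01 for the members and -0.14 for all unigenes. Both libraries served to choose the members, most of which were listed through MeJA, so these counts and medians are descriptions too. The largest ratios were 600 (107 to 23698) for c21928_Smj-1h_g1_i2, on 1 read in YE-1h, then 117 (48.8 to 465) for c21928_Smj-1h_g1_i6 and 57.7 (45.3 to 75.5) for SmiContig7680. The smallest were 0.090 (0.048 to 0.15) for SmiContig30636, 0.11 (0.066 to 0.18) for SmiContig28202 and 0.15 (0.11 to 0.19) for SmiContig31071.

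**Figure D4:**
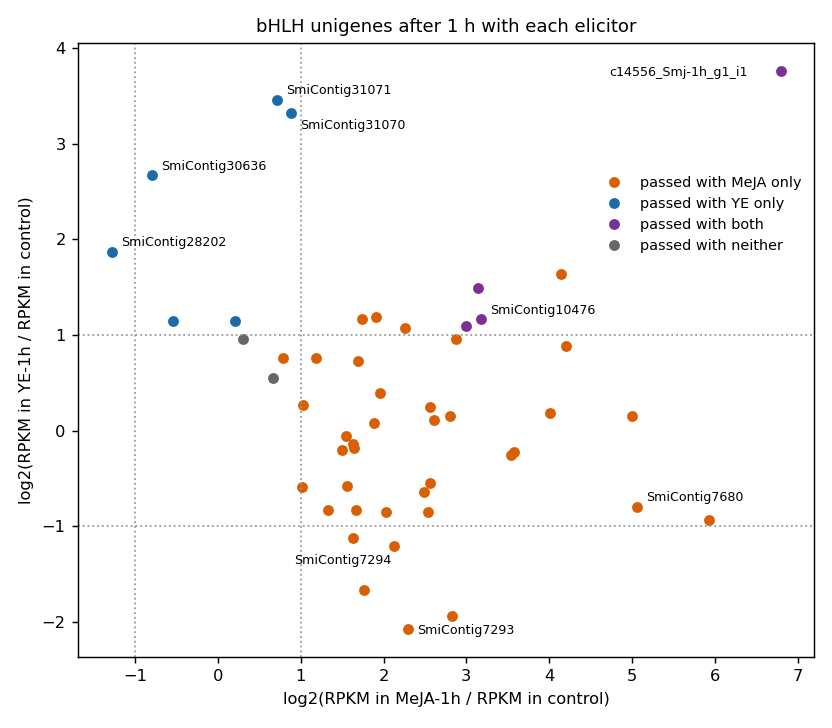
Log2 ratio of RPKM to the control in MeJA-1h (horizontal) and in YE-1h (vertical) for 50 of the 51 bHLH unigenes, coloured by the elicitors with which they passed upwards, with dotted lines at 2-fold. c21928_Smj-1h_g1_i2, with 1 read in YE-1h and 0 in the control, has no vertical value; SmiContig7293 lies lowest, at -2.07 on the YE-1h axis.

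4 members passed with both elicitors, at different times. SmiContig10476 and c14556_Smj-1h_g1_i1 passed in both MeJA libraries and in YE-1h, while SmiContig10532 and SmiContig8179 passed in both MeJA libraries and in YE-12h. The YE call of c14556_Smj-1h_g1_i1 was lost with RPKM under 1 set to 1 and with a pseudocount of 1 RPKM, and that of SmiContig8179 with the pseudocount, which leaves each with MeJA only. For SmiContig10532 the YE-12h ratio was 6.00 (1.82 to 30.5), from 27 reads in YE-12h and 3 in the control.

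2 members passed upwards in no library. SmiContig29272, the most expressed member by mean RPKM, had 55.5 RPKM after 1 h and 67.8 after 6 h of MeJA, 51.5 after 1 h and 26.0 after 12 h of YE, and 35.1 in the control. Its largest ratio was 1.93 (1.78 to 2.09) in MeJA-6h. SmiContig21002 had 8.96 RPKM after 1 h and 10.1 after 6 h of MeJA, 14.2 after 1 h and 8.87 after 12 h of YE, and 7.28 in the control, and its largest ratio was 1.95 (1.56 to 2.46) in YE-1h. The members closest to them on the other side of the threshold were SmiContig19767 at 2.03 and SmiContig14267 at 2.04, both in MeJA-1h. With TMM scaling, SmiContig29272 passed with MeJA and SmiContig21002 with YE.

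Other transcription factor families of the same list were chosen by the same ratios, and differences between families were not tested. The share of unigenes highest in MeJA-1h was 74.5% of 51 for bHLH, 32.1% of 28 for AP2-EREBP, 52.6% of 38 for MYB and 23.7% of 59 for WRKY, beside 12.3% of all unigenes. The share highest in YE-1h was 13.7% for bHLH, 35.7% for AP2-EREBP, 23.7% for MYB and 71.2% for WRKY, beside 22.3% of all unigenes. In MeJA-1h, 40 bHLH, 20 AP2-EREBP, 31 MYB and 33 WRKY unigenes passed upwards, beside 5.78% of all unigenes. In YE-1h, 8 bHLH, 15 AP2-EREBP, 17 MYB and 48 WRKY unigenes did, beside 5.89% of all unigenes.

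**Figure D5:**
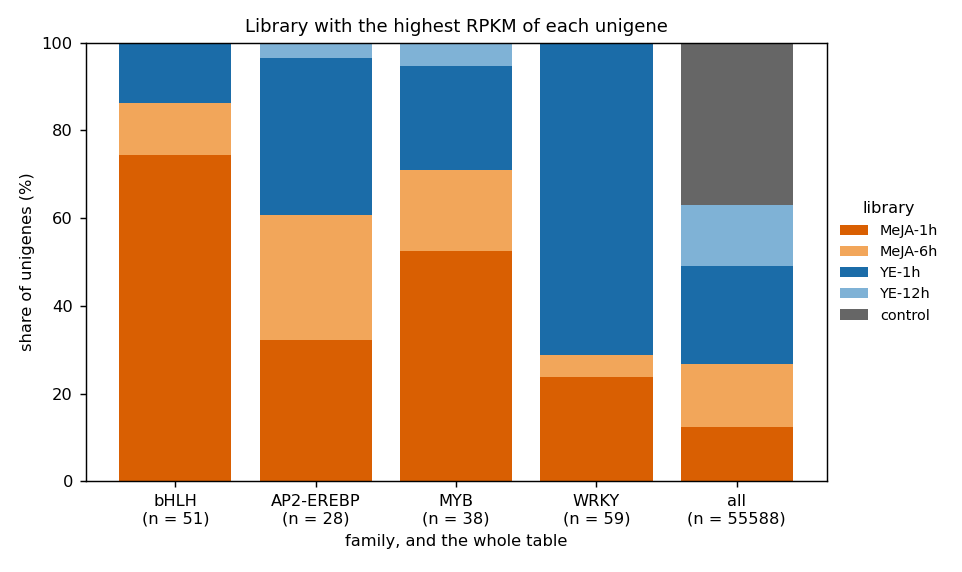
Share of unigenes (%) whose highest RPKM lies in each of the 5 libraries, for 4 transcription factor families and for all unigenes. Among bHLH unigenes 74.5% are highest in MeJA-1h, among WRKY unigenes 71.2% in YE-1h, and 36.9% of all unigenes in the control.

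Unigenes of the Tify family and of phenolic acid and tanshinone synthesis were read from the study's lists, which were filled from these libraries, and no regulation by a bHLH protein was tested. All 4 Tify unigenes, the family of the JAZ repressors of MYC2, passed upwards in MeJA-1h and MeJA-6h, 3 after 1 h and 1 after 12 h of YE, with median ratios to the control of 89.6, 25.1, 2.86 and 1.23. Of 37 unigenes assigned to phenolic acid synthesis, 26 passed upwards after 1 h and 33 after 6 h of MeJA, and 0 after 1 h and 1 after 12 h of YE. Of 66 assigned to tanshinone synthesis, 25, 17, 49 and 25 passed upwards in the same libraries. Of all unigenes, 5.78%, 5.15%, 5.89% and 2.83% passed upwards in these libraries.

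Family assignment leaves out some related unigenes. In the annotation at hand, 4 further unigenes match an *Arabidopsis* bHLH gene without being members. That annotation is part of the study's list of upregulated unigenes, so their rises are descriptions. SmiContig21564, SmiContig29969 and c21457_Sye-1h_g1_i1 match AT1G61660, and their ratios to the control were 2.36, 2.24 and 2.95 in MeJA-1h and 2.84, 3.17 and 3.20 in YE-1h, so each passed with both elicitors. SmiContig32911 matches LHW, which acts in root vascular development in *Arabidopsis*. It had 27.3 RPKM after 1 h and 16.5 after 6 h of MeJA, 8.35 after 1 h and 9.16 after 12 h of YE, and 12.6 in the control, and passed only in MeJA-1h, at 2.17.

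In length the typical member was close to the typical unigene. Lengths were estimated from the reads and RPKM values, which makes them slightly short where reads are few, and had a median of 1030 bp over the members and 1017 bp over all unigenes. Their median level was 13.9 RPKM after 1 h and 10.5 after 6 h of MeJA, 2.79 after 1 h and 2.78 after 12 h of YE, and 3.18 in the control, while that of all unigenes lay between 4.11 and 4.89 RPKM. No member was at 3 reads or fewer in either MeJA library, 2 were in YE-1h, 1 in YE-12h and 5 in the control. The counted read pairs numbered 16070622 after 1 h and 15789097 after 6 h of MeJA, 19055712 after 1 h and 20358510 after 12 h of YE, and 13395770 in the control, so the control was the shallowest library. At these depths 3 reads on 1 kb are between 0.147 and 0.224 RPKM.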

How the data were processed

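The authors filtered paired Illumina reads with NGS QC Toolkit, built unigenes with Trinity and counted read pairs per unigene; the counting program is not given in the sources used here. The deposited counts are whole numbers without normalization, and the deposited RPKM are the authors' values per unigene length and library total. Among 136 member values under 100 reads, the RPKM and the unigene lengths that the study lists implied at least 0.1 reads more than the count in 97 and at least 0.1 fewer in 3, so the RPKM do not follow exactly from the whole counts, which appear to be estimates with their decimals dropped; both were used as deposited.

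Ratios of RPKM were computed between 7 pairs of libraries. A library at 0 reads was set to 3 reads, with the ratio then a bound, and no ratio was computed for a pair at 3 reads or fewer each. For medians, a library at 3 reads or fewer was set to 3. Reads were compared with edgeR (version 4.0.16, R 4.3.3, binomTest), adjusted by Benjamini-Hochberg over all unigenes with a read in either library, after the step was tested on simulated data. Intervals are exact Clopper-Pearson ones (SciPy 1.17.1). The alternatives were TMM scaling, size factors of DESeq2 1.42.0, RPKM below 1 raised to 1, an added pseudocount of 1 RPKM, at least 30 summed reads, an FDR of 0.05, a fold over 2 alone, the exact test of edgeR at assumed coefficients of variation of 0.2 and 0.4, and summed Trinity components.

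The members and lists were chosen with earlier results of these data known. Named by rule were members with an *Arabidopsis* match in the shortened annotation at hand, the 3 largest ratios to the control in each elicited library with at least 30 reads there, the 3 highest mean RPKM values, members passing in no library, those in a component with several members, those passing with YE only or both elicitors, and the 3 largest and 3 smallest ratios of MeJA-1h to YE-1h with at least 30 reads in one. Others are marked where they appear. A table of 42046 *S. miltiorrhiza* genes matched 0 unigene names, and no sequence is shown.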

Additional observations from a re-analysis of the deposited data

Results flagged for a closer look

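3 members passed in opposite directions with the 2 elicitors after 1 h, and the difference between the elicitors was not tested, since each condition had 1 library. The share of all unigenes that did the same is not given here, so nothing is read from this count. SmiContig28202 had a log2 ratio to the control of -1.28 in MeJA-1h and 1.87 in YE-1h. SmiContig7293 had log2 ratios of 2.296 in MeJA-1h and -2.07 in YE-1h, from 197 reads in MeJA-1h and 11 in YE-1h, against 33 in the control. SmiContig7294 had log2 ratios of 2.12 in MeJA-1h and -1.21 in YE-1h, from 199 reads in MeJA-1h and 23 in YE-1h, against 38 in the control. The last 2 carry neighbouring numbers, were named after their values were seen, and may share reads, which was not tested. With TMM scaling, the fall of SmiContig7293 in YE-1h passed, and those of SmiContig7294 in YE-1h (log2 ratio -1.06) and SmiContig28202 in MeJA-1h (-1.004) did not.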

How the results depend on the processing

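With 1 library per condition no library could be left out, and the threshold tests reads of 2 libraries. No paired analysis was possible because replicate samples were mixed into 1 library per condition. Of 226 alternative values of the counts and medians, 171 stayed within 1.5 times the main count, or moved a median by less than the counting interval of its middle member, 53 moved further and 2 changed sign. These 2 were the median log2 ratio of YE-12h to the control, 0.037 with TMM scaling and 0.043 with DESeq2 size factors. Of 495 values for single members, 472 kept direction and call, 23 lost the call and 0 changed direction. The 23 leave out calls lost under the exact tests that assume a coefficient of variation, which are described below. Depth limits the weakest members most: 5 had 3 reads or fewer in the control.

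An exact test that assumes a coefficient of variation of 0.4 between libraries left 7 members upwards against the control after 1 h of MeJA, 3 after 6 h, 0 after 1 h of YE and 0 after 12 h, 6 upwards and 0 downwards in MeJA-1h against YE-1h, and 0 in either direction between the times of an elicitor; downwards against the control, 0 were left. By elicitor it left 8 with MeJA only, 0 with YE only, 0 with both and 43 with neither. The shares of all unigenes left at 0.4 or 0.2 are not given here, so nothing is read from the counts. The 7 in MeJA-1h were SmiContig13435, SmiContig7364, SmiContig7680, c14556_Smj-1h_g1_i1, c21928_Smj-1h_g1_i2, c21928_Smj-1h_g1_i3 and c21928_Smj-1h_g1_i6. At an assumed 0.2, 15 members were left upwards in MeJA-6h, 4 in YE-1h and 0 at YE-12h, 0 downwards in MeJA-1h, YE-1h and YE-12h, 4 downwards in MeJA-6h against MeJA-1h, 4 downwards and 0 upwards in YE-12h against YE-1h, 0 with both elicitors and 15 with neither.

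With TMM scaling or DESeq2 size factors, 0 members passed downwards in MeJA-1h, 1 in YE-1h and 0 in YE-12h, 7 passed with both elicitors and 0 with neither. With a pseudocount of 1 RPKM, 0 passed downwards in MeJA-1h, 1 in YE-1h and 0 in YE-12h, 1 upwards in YE-12h, 2 with both and 4 with neither, and the median log2 ratio of MeJA-1h to YE-1h was 1.67. By a fold over 2 alone, 14 were upwards and 5 downwards in YE-1h (7.92% and 8% of all unigenes), 5 upwards and 4 downwards in YE-12h (4.61% and 7.21%), 7 upwards in YE-12h against YE-1h (6.05%), 8 with both (4.71%) and 1 downwards in MeJA-6h (13.5%). At an FDR of 0.05, 1 was also downwards in MeJA-6h (11.1%). The shares of all unigenes with DESeq2 size factors and with the pseudocount are not given here, so nothing is read from those counts.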
